A study of Mus musculus with 6 samples.

Results

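The genes described here encode the proteins that bring pyruvate into the mitochondrion, convert it to acetyl-CoA and oxidise it in the tricarboxylic acid (TCA) cycle, together with enzymes that exchange carbon between the cycle and aspartate, glutamate, malate and cytosolic citrate. They were taken by symbol from a fixed list of 32 genes, and all 32 had a row in the deposited table of 15836 genes. All 32 also passed the filter on low counts that left 13243 genes for testing.

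RNA was sequenced from 6 samples of a mouse cell line labelled CAF, an abbreviation for cancer-associated fibroblast, with a pancreatic tumour as the tissue of origin. The 3 control samples carry the genotype wt and the treatment control, and the 3 MAOA-KO samples carry the genotype MAOA ko and the treatment MAOA knockout. A description field of the latter group speaks of knockdown. Maoa encodes monoamine oxidase A, an enzyme of the outer mitochondrial membrane that oxidises serotonin and noradrenaline. The labels name no guide, clone or culture, so the p-values below measure the spread between these 6 libraries, which may be technical.

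Library totals ran from 18631359 to 26645441 counts, so that 3 counts correspond to 0.113 to 0.161 CPM (counts scaled to library size) before TMM scaling, a floor that covers counting error only. The row named Maoa had 49.0 ± 0.922 CPM in the controls and 24.9 ± 0.639 CPM in the MAOA-KO libraries (SD, n = 3 each; adjusted p = 3.46e-15, edgeR). The locus listed in that row is not the Maoa locus, so this value is a weak check of the labels. The listed loci of all 32 genes described here match the annotation of the named gene. Of 12 fibroblast markers 11 had a row and 6 were tested, 2 higher and 4 lower, and their summed level was 3497 to 3642 CPM in the controls and 1946 to 2003 CPM in MAOA-KO, most of it from Vim. Vim fell from 3426 ± 73.8 to 1789 ± 30.1 CPM, while Col3a1 (120.5 ± 5.09 and 128.7 ± 2.75 CPM) and Acta2 (30.9 ± 1.07 and 45.9 ± 0.859 CPM) rose. The other 8 with a row each lay at or below 2.02 CPM on average in both groups, and Lum had no row. Of 12 epithelial markers 9 had a row and 7 were tested, 2 higher and 4 lower. Their summed level, mainly from Krt8, Krt18 and Krt19, was 2133 to 2265 CPM in the controls and 1261 to 1339 CPM in MAOA-KO. Sox9 (31.3 ± 1.33 and 49.4 ± 3.68 CPM) and Muc1 (0.701 ± 0.101 and 1.38 ± 0.166 CPM) rose. Epcam averaged 0.349 CPM in control and 0.0866 CPM in MAOA-KO libraries. Of 10 leukocyte and macrophage markers Cd68 and Cd14 had a row (77.4 to 80.8 CPM summed in the controls, 67.7 to 75.2 CPM in MAOA-KO), and Ptprc and Csf1r had none. Endothelial markers summed to at most 0.733 CPM and those of smooth muscle and pericytes to at most 4.77 CPM. Over all genes tested, 37% were called higher and 36.9% lower at an adjusted p under 0.05 (edgeR). The markers above moved with the groups, and their part in the results below was not tested. In bulk RNA, fewer cells of a type and less RNA per cell cannot be told apart.

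Pyruvate made by glycolysis crosses the inner mitochondrial membrane through the carrier Mpc1/Mpc2. The pyruvate dehydrogenase complex then turns it into acetyl-CoA, and citrate synthase joins acetyl-CoA to oxaloacetate to start the cycle. Pyruvate dehydrogenase kinases switch the complex off by phosphorylation and phosphatases switch it on again. In proliferating cells much of the cycle's carbon leaves as citrate for lipid synthesis or as aspartate for nucleotide synthesis, and is replaced from glutamate or by pyruvate carboxylase.

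Most of the 32 genes were lower in MAOA-KO, by modest amounts. In edgeR's quasi-likelihood test with Benjamini-Hochberg adjustment over all genes tested, 22 were lower and 5 higher at an adjusted p under 0.05, and 5 did not pass. Of all genes tested, 36.9% were lower and 37% higher by the same rule, 73.9% in either direction. The median log2 fold change of the 32 genes was -0.33, beside 0.00 over all genes tested. Against a change of 1.2-fold, 16 were lower and 4 higher, where 22.3% and 23.6% of all genes tested passed in those directions. The calls of Pdhb, Pdhx, Pdp1, Pcx, Idh3a, Idh3b and Mdh1 were lost against that change. Me2 alone reached a 2-fold change, whereas 14% of all genes tested did. The median size of the change, regardless of sign, was 0.38 on the log2 scale for the 32 genes and 0.35 for all genes.

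The summed level of the 32 genes was 4478, 4499 and 4518 CPM in the 3 controls and 3698, 3685 and 3668 CPM in the 3 MAOA-KO libraries. The groups lay apart, with a control mean 1.22 times that of MAOA-KO. Sums of other sets of 32 genes were not computed, so this separation has no share over all genes beside it. The 23 genes whose MAOA-KO libraries all lay below the controls compare with 37.5% of all genes tested, and the 6 whose MAOA-KO libraries all lay above compare with 37.7% (75.1% of all genes in either direction). In the remaining 3 genes, Pdha1, Pdk4 and Mpc1, the groups overlapped.

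**Figure D1:**
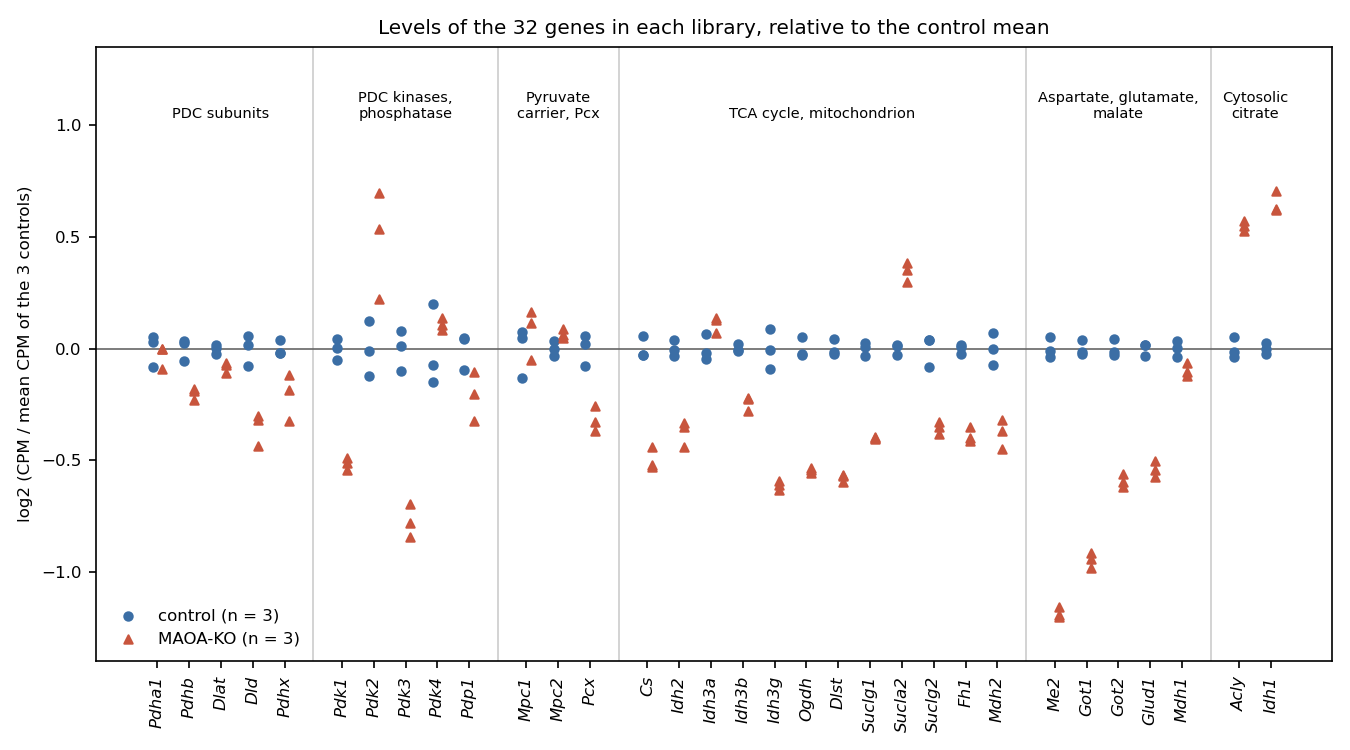
Each point is 1 library (circles, 3 controls; triangles, 3 MAOA-KO), given as the log2 of its CPM over the mean CPM of the 3 controls, for the 32 genes grouped by role (PDC, pyruvate dehydrogenase complex). Most triangles lie below 0, lowest for Me2 and Got1, while those of Acly, Idh1, Pdk2 and Sucla2 lie above all circles of the same gene.

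The start regions of 4 of the genes that the results turn on are printed here. Shown are the RefSeq windows (GRCm38.p6) from 250 bases before to 50 bases after the start, on the gene's strand. They belong to Got1, the gene with the lowest fold change after Me2, and to Acly and Idh1, the cytosolic pair that rose. The last is that of Sucla2, which rose while its partner Suclg1 fell. The windows lie at chr19:43524556-43524855 (minus strand), chr11:100527951-100528250 (minus), chr1:65186430-65186729 (minus) and chr14:73552536-73552835 (plus). In the table's GRCm38.p6 coordinates, Got1 (ENSMUSG00000025190) spans chromosome 19, 43499752 to 43524605, Acly (ENSMUSG00000020917) chromosome 11, 100476353 to 100528000, Idh1 (ENSMUSG00000025950) chromosome 1, 65158616 to 65186500, and Sucla2 (ENSMUSG00000022110) chromosome 14, 73525319 to 73596142. The RefSeq start of Sucla2 used here lies inside the listed span. Capitals mark a match to any of the motifs listed next.
Got1: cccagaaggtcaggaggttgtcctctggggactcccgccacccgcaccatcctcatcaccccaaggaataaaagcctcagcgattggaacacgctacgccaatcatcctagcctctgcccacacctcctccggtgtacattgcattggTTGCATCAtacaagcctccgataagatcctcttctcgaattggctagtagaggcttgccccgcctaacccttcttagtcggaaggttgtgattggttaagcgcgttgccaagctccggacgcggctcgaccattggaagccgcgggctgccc
Acly: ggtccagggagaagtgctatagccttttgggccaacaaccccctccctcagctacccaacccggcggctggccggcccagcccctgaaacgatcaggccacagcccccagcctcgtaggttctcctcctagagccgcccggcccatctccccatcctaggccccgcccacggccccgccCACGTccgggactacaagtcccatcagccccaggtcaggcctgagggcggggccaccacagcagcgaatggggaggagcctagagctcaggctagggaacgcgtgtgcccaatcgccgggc
Idh1: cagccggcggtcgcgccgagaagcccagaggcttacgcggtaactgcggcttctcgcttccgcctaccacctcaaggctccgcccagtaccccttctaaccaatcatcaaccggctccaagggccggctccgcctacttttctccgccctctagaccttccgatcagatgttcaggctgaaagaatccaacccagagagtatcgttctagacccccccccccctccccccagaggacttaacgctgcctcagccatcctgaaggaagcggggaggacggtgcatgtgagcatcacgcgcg
Sucla2: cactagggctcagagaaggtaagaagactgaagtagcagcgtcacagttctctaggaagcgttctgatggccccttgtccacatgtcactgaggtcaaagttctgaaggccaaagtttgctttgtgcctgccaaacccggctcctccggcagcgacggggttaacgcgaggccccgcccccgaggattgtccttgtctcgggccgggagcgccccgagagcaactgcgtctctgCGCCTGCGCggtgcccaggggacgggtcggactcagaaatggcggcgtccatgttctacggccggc

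A RefSeq window was found for 29 of the 32 genes, and 6 motifs were searched on both strands. The response element of C/EBP and ATF factors (TGATGNAA) was found in 1 of the 29 windows, that of Got1, where its first base lies at -102 on the opposite strand, and in 3.97% of the 32851 windows of the same length. The NRF1 site (GCGCANGCG) was found in 2, those of Dld and Sucla2, or 6.90% beside 6.25% of all windows. The hypoxia response core (ACGTG) was found in 8, or 27.6% beside 19.6% of all windows. They are the windows of Pdhb, Pdk2, Pdk3, Pcx, Idh3g, Ogdh, Mdh1 and Acly. The estrogen-related receptor element (TNAAGGTCA), the sterol response element (TCACNCCAC) and an E-box of the lysosomal CLEAR type (TCACGTGA) had 0 matches in the 29 windows and matches in 1.28%, 1.24% and 0.974% of all windows. The hypoxia core can lie within the CLEAR E-box. A match describes the letters in these windows and is not evidence of binding, and the lack of one says nothing about the factor.

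Among the subunits of the pyruvate dehydrogenase complex, 3 of 5 genes fell, beside 36.9% lower and 73.9% called in either direction over all genes tested, and the gene of the decarboxylating alpha subunit did not pass. Pdha1, which encodes that alpha subunit and carries the sites the kinases phosphorylate, had 267.0, 288.5 and 292.8 CPM in the controls and 265.4, 282.5 and 282.2 CPM in MAOA-KO. The groups overlapped, and the log2 fold change was -0.03 ± 0.04 (SE, adjusted p = 0.494, edgeR). With the GC and length correction it passed (-0.10, adjusted p = 0.000622; range over the alternatives 8.56e-06 to 1). Pdhb, the beta subunit, had 154.7, 163.5 and 164.6 CPM in the controls and 141.9, 141.2 and 137.3 CPM in MAOA-KO. All MAOA-KO values lay below all control values, a fall of 0.20 ± 0.04 on the log2 scale (adjusted p = 6.21e-05, edgeR). With library totals alone it was -0.11 (adjusted p = 0.0119), and against a 1.2-fold change it did not pass (adjusted p = 1; range over the alternatives 1.96e-15 to 1).

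Dlat, the acetyltransferase core of the complex, had a log2 fold change of -0.08 ± 0.04 that just missed the threshold (adjusted p = 0.0619, edgeR), from 101.6 ± 1.41 to 96.0 ± 1.49 CPM. It passed with the replicate number as a block (adjusted p = 0.0166, edgeR) and without control replicate 1 (0.0414; range over the alternatives 1.39e-05 to 1). Pdhx, which anchors the dihydrolipoamide dehydrogenase to that core, fell by 0.22 ± 0.06 (adjusted p = 0.00326, edgeR), a call that was lost with library totals alone (-0.13, adjusted p = 0.0659; range over the alternatives 2.03e-06 to 0.746). Dld, the dihydrolipoamide dehydrogenase itself, is shared with the alpha-ketoglutarate and branched-chain complexes. It had 242.9, 259.6 and 267.1 CPM in the controls and 189.6, 208.0 and 205.4 CPM in MAOA-KO, with no overlap. The difference of -0.35 ± 0.04 on the log2 scale was the lowest of the 5 subunits (adjusted p = 4.8e-08, edgeR). With a correction for GC content and length, chosen after seeing the data, it was -0.55.

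The kinases and the phosphatase of the complex moved in different directions. Pdk1, the kinase known as a target of hypoxia-inducible factor, had 190.3, 197.6 and 203.3 CPM in the controls and 135.2, 138.3 and 140.2 CPM in MAOA-KO, so that the groups lay well apart. It fell by 0.52 ± 0.04 on the log2 scale (adjusted p = 7.57e-12, edgeR). Pdk3 had 27.1, 29.3 and 30.7 CPM in the controls and 17.9, 16.2 and 16.9 CPM in MAOA-KO, a fall of 0.78 ± 0.06 the lowest value of the 32 genes after Me2 and Got1 (adjusted p = 4.37e-11, edgeR). Pdk2 had 4.86, 4.44 and 4.10 CPM in the controls and 7.24, 6.47 and 5.21 CPM in MAOA-KO. Its groups did not overlap, though MAOA-KO replicate 3 lay close to control replicate 1, and it rose by 0.51 ± 0.12 (adjusted p = 0.000495, edgeR).

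Pdk4, the kinase induced by fasting and by Ppargc1a in muscle and liver, was low in both groups, with 1.39, 1.09 and 1.15 CPM in the controls and 1.33, 1.28 and 1.30 CPM in MAOA-KO. The groups overlapped (log2 fold change 0.11 ± 0.21, adjusted p = 0.656, edgeR). Pdp1, a phosphatase that reactivates the complex, fell from 40.0 ± 2.17 to 34.7 ± 2.61 CPM, by 0.20 ± 0.06 on the log2 scale (adjusted p = 0.00258, edgeR). The fall was 0.48 with the GC and length correction, and with library totals alone it no longer passed (log2 fold change -0.12, adjusted p = 0.0634; range over the alternatives 2.19e-27 to 0.862).

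Per length, in the authors' FPKM (fragment counts scaled by transcript length and library total), Pdk1 made up most of the summed kinase level in every library. The 4 kinase genes summed to 50.5, 52.5 and 54.3 FPKM in the controls and 39.4, 38.6 and 38.8 FPKM in MAOA-KO. The share of Pdk1 was 70.3% ± 0.18 (SD, n = 3) in the controls and 70.3% ± 1.7 in MAOA-KO. That of Pdk3 was 25.4% ± 0.72 and 21.2% ± 0.87, that of Pdk2 3.69% ± 0.45 and 7.42% ± 1.2, and that of Pdk4 0.644% ± 0.11 and 0.990% ± 0.012. The groups lay apart for the shares of Pdk2, Pdk3 and Pdk4 and overlapped for Pdk1. With exact permutation p-values of 0.1 for those 3 (adjusted over the 4 kinases, 0.133), the design could not reach 0.05. Shares within other sets of 4 genes were not computed, so this separation has no share over all genes beside it. In CPM, 75.1% of all genes tested had groups that did not overlap. A share also depends on the other kinases: the CPM of Pdk4 itself overlapped, at 25 to 35 counts per library.

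**Figure D2:**
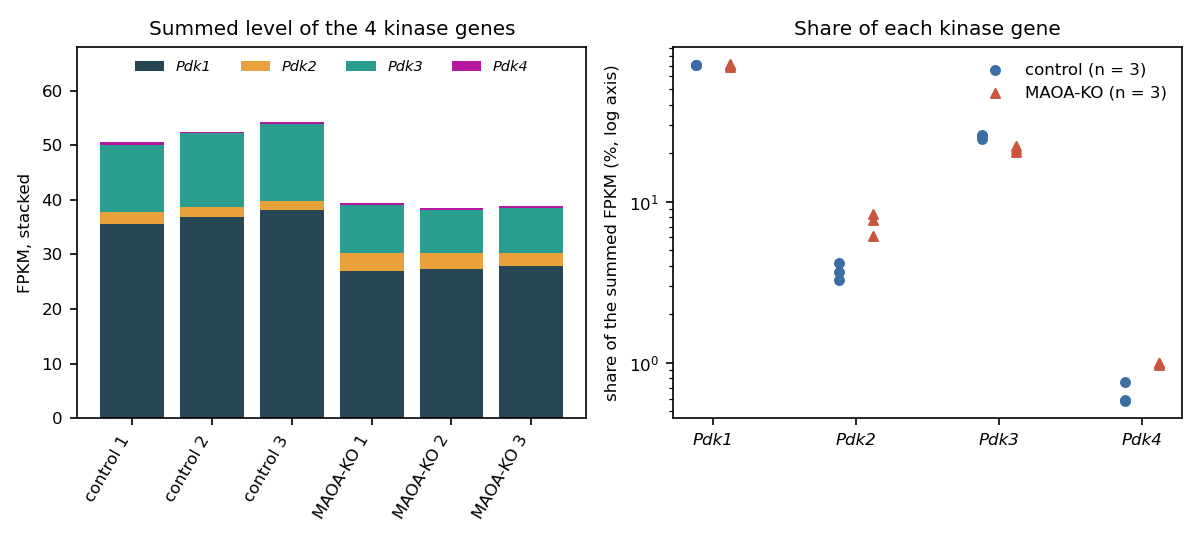
Left, FPKM of the 4 pyruvate dehydrogenase kinase genes stacked for each library. Right, each library's share of the summed FPKM in percent on a log axis (circles, 3 controls; triangles, 3 MAOA-KO), with Pdk1 near 70.3% in both groups, Pdk2 higher and Pdk3 lower in MAOA-KO.

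Of the genes that bring pyruvate into the matrix or carboxylate it, 1 of 3 passed. Over all genes tested, 36.9% were lower and 73.9% passed in either direction. Mpc1 and Mpc2, the subunits of the carrier, had log2 fold changes of 0.09 ± 0.09 and 0.06 ± 0.06 (adjusted p = 0.356 and 0.332, edgeR). Mpc2 lay between 20.6 and 21.6 CPM in the controls and between 21.8 and 22.4 CPM in MAOA-KO, and passed with library totals alone (log2 fold change 0.15, adjusted p = 0.0252; range over the alternatives 0.025 to 1). Pcx, pyruvate carboxylase, had 9.68, 9.43 and 8.81 CPM in the controls and 7.20, 7.79 and 7.40 CPM in MAOA-KO. All MAOA-KO libraries lay below the controls, a fall of 0.31 ± 0.09 on the log2 scale (adjusted p = 0.00272, edgeR).

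The 12 genes for enzymes of the cycle inside the mitochondrion all passed, 10 lower and 2 higher, with a median log2 fold change of -0.38 and without overlap between the groups in any of them. Over all genes tested, 73.9% passed, 36.9% lower and 37% higher, and 75.1% had groups that did not overlap. Cs, citrate synthase, had 374.1, 353.2 and 353.2 CPM in the controls and 265.4, 249.7 and 251.3 CPM in MAOA-KO. The values fell into separate ranges, a fall of 0.50 ± 0.04 (adjusted p = 1.17e-11, edgeR). The alpha-ketoglutarate dehydrogenase genes Ogdh, its decarboxylating component, and Dlst, its succinyltransferase core, fell by 0.54 ± 0.04 and 0.58 ± 0.04 on the log2 scale. Ogdh had 132.9, 126.3 and 125.8 CPM in the controls and 88.6, 88.1 and 87.3 CPM in MAOA-KO. Dlst had 179.6, 172.5 and 171.3 CPM in the controls and 117.8, 115.3 and 117.5 CPM in MAOA-KO. In both genes the MAOA-KO libraries agreed closely with each other and lay well below the controls (adjusted p = 5.15e-12 and 6.19e-13, edgeR).

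The subunits of the NAD-dependent isocitrate dehydrogenase did not move together. Idh3g, a regulatory subunit, had 117.7, 110.4 and 104.1 CPM in the controls and 72.5, 73.5 and 71.4 CPM in MAOA-KO. It fell by 0.61 ± 0.05, the lowest value among the cycle enzymes (adjusted p = 5.84e-12, edgeR). Idh3b, the other regulatory subunit, fell by 0.24 ± 0.04, from 167.3 ± 1.86 to 141.4 ± 3.05 CPM (adjusted p = 2.61e-06, edgeR), or by 0.15 with the GC and length correction. Idh3a, the catalytic subunit, had 90.0, 91.5 and 97.1 CPM in the controls and 97.6, 102.0 and 101.5 CPM in MAOA-KO. Its highest control and lowest MAOA-KO library almost touched, and it rose by 0.11 ± 0.04 (adjusted p = 0.0194, edgeR), or by 0.20 with library totals alone. That call did not hold in DESeq2 (adjusted p = 0.0541) or without control replicate 1, control replicate 2, MAOA-KO replicate 2 or MAOA-KO replicate 3 (adjusted p = 0.0835, 0.0871, 0.0627 and 0.0724, edgeR; range over all alternatives 0.000128 to 1). Idh2, the NADP-dependent mitochondrial enzyme, fell by 0.38 ± 0.04 on the log2 scale, from 107.9 ± 2.60 to 83.1 ± 3.27 CPM, or by 0.25 with the GC and length correction.

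Succinyl-CoA synthetase pairs a common alpha subunit, Suclg1, with a beta subunit that makes it specific for ADP (Sucla2) or GDP (Suclg2). Sucla2 had 51.3, 52.7 and 52.9 CPM in the controls and 66.8, 68.3 and 64.3 CPM in MAOA-KO. It rose by 0.35 ± 0.04 on the log2 scale without overlap (adjusted p = 1.22e-07, edgeR), or by 0.23 with the GC and length correction. Suclg2 had 143.4, 155.7 and 155.7 CPM in the controls and 118.9, 120.9 and 116.3 CPM in MAOA-KO, and fell by 0.35 ± 0.04 (adjusted p = 2.75e-08, edgeR). Suclg1 fell by 0.40 ± 0.04, from 93.8 ± 2.00 to 71.2 ± 0.141 CPM (adjusted p = 2.79e-09, edgeR). Thus the beta subunits moved in opposite directions, and the shared alpha subunit fell.

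The remaining cycle enzymes fell by similar amounts. Fh1, fumarase, fell by 0.39 ± 0.04 on the log2 scale, from 87.2 ± 1.36 to 66.5 ± 1.53 CPM. Mdh2, mitochondrial malate dehydrogenase, fell by 0.38 ± 0.04, from 253.8 ± 12.6 to 195.3 ± 9.02 CPM (adjusted p = 6.68e-09 and 1.23e-08, edgeR).

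**Figure D3:**
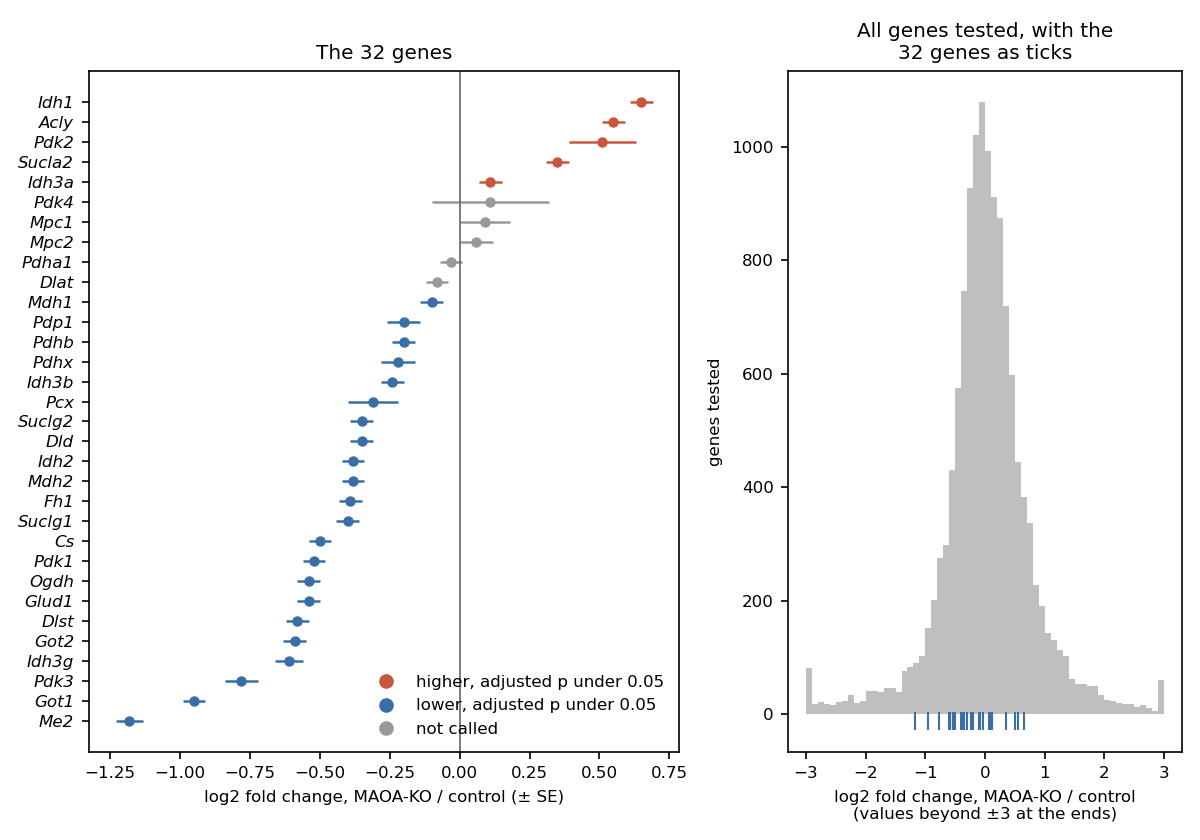
Left, log2 fold change of MAOA-KO over control with its SE for the 32 genes, coloured by call (adjusted p under 0.05, edgeR), from -1.18 for Me2 to 0.65 for Idh1. Right, the number of genes tested per bin of log2 fold change for all 13243 genes, with the 32 genes as ticks below, which lie in the central part of the distribution.

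The lowest fold changes of the 32 genes were those of Me2 and Got1, which link the cycle to malate, aspartate and glutamate. All 5 genes with that role fell, beside 36.9% lower and 73.9% called in either direction over all genes tested. Me2, the mitochondrial malic enzyme that makes pyruvate from malate, had 73.8, 75.2 and 78.5 CPM in the controls and 34.0, 33.0 and 33.2 CPM in MAOA-KO. The groups were far apart relative to their spread, and the level was 2.27-fold lower (log2 fold change -1.18 ± 0.05, adjusted p = 1.31e-17, edgeR). Got1, the cytosolic aspartate aminotransferase, had 257.5, 269.3 and 259.8 CPM in the controls and 139.0, 132.6 and 136.6 CPM in MAOA-KO, 1.93-fold lower (log2 fold change -0.95 ± 0.04, adjusted p = 2.05e-17, edgeR). The window of Got1 above holds the C/EBP and ATF element, as do 3.97% of all windows, and a link to its fall was not tested.

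Got2, the mitochondrial aminotransferase, had 359.7, 341.8 and 344.9 CPM in the controls and 236.3, 226.8 and 230.4 CPM in MAOA-KO, 1.51-fold lower. Glud1, glutamate dehydrogenase, had 322.3, 312.1 and 322.5 CPM in the controls and 224.9, 219.1 and 214.2 CPM in MAOA-KO, 1.45-fold lower. Neither gene had overlapping groups (adjusted p = 1.47e-13 and 8.95e-13, edgeR). Mdh1, the cytosolic malate dehydrogenase of the malate-aspartate shuttle, changed least of the 5, from 254.1 ± 6.59 to 237.4 ± 5.01 CPM, a fall of 0.10 ± 0.04 on the log2 scale (adjusted p = 0.0205, edgeR). Its call did not hold with library totals alone (adjusted p = 0.804), with upper-quartile factors (0.154), without control replicate 2 (0.0989) or without MAOA-KO replicate 3 (0.11; range over all alternatives 4.13e-11 to 1).

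The genes of the cytosolic enzymes of citrate and isocitrate both rose, where 37% of all genes tested were called higher. Acly, ATP citrate lyase, splits exported citrate into acetyl-CoA for lipid synthesis and oxaloacetate. It had 219.9, 216.3 and 230.4 CPM in the controls and 330.1, 325.2 and 319.6 CPM in MAOA-KO, 1.46-fold higher (log2 fold change 0.55 ± 0.04, adjusted p = 8.72e-13, edgeR). Idh1, the cytosolic and peroxisomal NADP-dependent isocitrate dehydrogenase, had 95.5, 97.1 and 98.9 CPM in the controls and 149.8, 158.5 and 149.3 CPM in MAOA-KO, 1.57-fold higher (log2 fold change 0.65 ± 0.04, adjusted p = 1.31e-13, edgeR). In each gene every MAOA-KO library lay above every control, as in 37.7% of all genes tested.

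Ratios of 2 genes within a library do not depend on how libraries are scaled, and 15 pairs were compared. The log2 ratio was higher in all MAOA-KO than in all control libraries in 9 pairs, lower in 4 and overlapping in 2. Of all 87139801 pairs of the 13202 tested genes with an FPKM above 0 in every library, 74% had ratios that did not overlap between the groups, so most ratios of any 2 genes lay apart. Each of these 13 tests had an exact two-sided permutation p of 0.1, the smallest possible (adjusted over the 15 pairs, 0.115). Among the ratios that were higher, that of Acly over Cs differed most: its log2 FPKM ratio was -1.36, -1.30 and -1.21 in the controls and -0.28, -0.22 and -0.25 in MAOA-KO, a 2.06-fold difference. Idh1 over Idh2 differed 2.04-fold, with log2 ratios of -0.60, -0.53 and -0.48 in the controls and 0.42, 0.61 and 0.43 in MAOA-KO. Thus Idh2 had the higher FPKM in each control and Idh1 in each MAOA-KO library.

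In MAOA-KO the ratio of Idh3a to Idh3g was 1.65 times its control value, that of Idh3a to Idh3b 1.28 times and that of Sucla2 to Suclg2 1.62 times, each without overlap between groups. Mdh1 over Mdh2 was 1.21 times its control value, whereas Got1 over Got2 was 1.28-fold lower. Pdk3 over Pdk2 was 2.39-fold lower and Pdk1 over Pdk2 2.00-fold lower. Ogdh and Dlst, which act in the same complex, kept nearly the same ratio: -1.31 ± 0.01 in the controls and -1.28 ± 0.02 in MAOA-KO on the log2 scale (n = 3 per group). Even so, the groups did not overlap, and this pair is among the 9 that were higher, with a difference of only 0.03. The groups overlapped for Mpc1 over Mpc2 and for Pdk4 over Pdk2, with exact permutation p-values of 0.8 and 0.2.

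**Figure D4:**
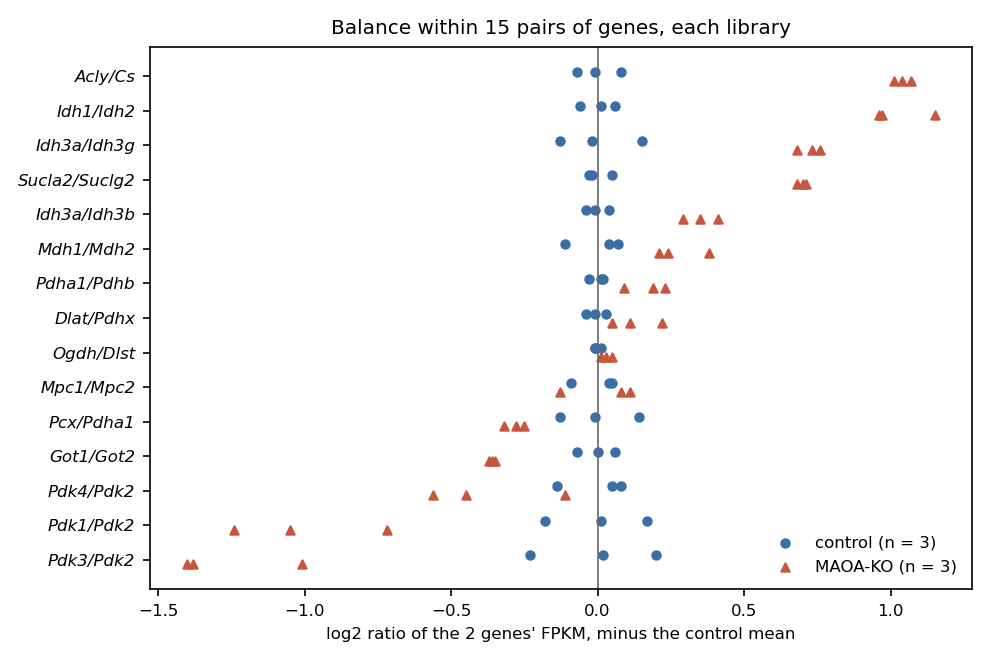
Log2 ratio of the FPKM of 2 genes in each library, minus the mean of the 3 controls, for 15 pairs (circles, 3 controls; triangles, 3 MAOA-KO), ordered by the difference between groups. Acly/Cs and Idh1/Idh2 lie farthest to the right, Pdk3/Pdk2 and Pdk1/Pdk2 farthest to the left, and Ogdh/Dlst stays near 0.

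Per length, the levels of the 32 genes in the controls ranged from 0.336 FPKM for Pdk4 to 169 FPKM for Mdh2. Got2 (134 FPKM), Got1 (124 FPKM), Cs (119 FPKM) and Mdh1 (116 FPKM) came next, followed by Pdhb at 103 FPKM. At the low end Pdk2 had 1.93 FPKM, Pcx 2.18 FPKM, Pdp1 9.24 FPKM and Pdhx 9.47 FPKM. In MAOA-KO, Mdh2 was again highest with 138 FPKM, and Got1 had 68.1 FPKM, close to Idh1 with 68.8 FPKM. The deposited FPKM of Sucla2 (91.6 in the controls) and Mpc1 (26.6) rest on lengths of 554 and 373 bases, those of short annotated transcripts. With the longest coding transcript, of 2229 and 961 bases, they would be 22.8 and 10.3 FPKM, and Sucla2 would lie below Suclg2 (43.7 FPKM) in the controls. The length used for Dlst, 2260 bases, is that of a transcript annotated for nonsense-mediated decay, and its level would be 61.2 in place of 74.9 FPKM. These recomputed levels assume that the counts cover the whole gene, and the sources used here do not give whether they do or come from the transcript with that length. The same doubt bears on the levels, ratios and fold changes of Sucla2, Mpc1 and Dlst given above.

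Further genes of the pathway were taken from 6 lists, whose counts stand beside 37% higher and 36.9% lower over all genes tested (73.9% in either direction). Among 23 further genes of the cycle and its neighbours, 7 of 19 tested were higher and 4 lower, with a median log2 fold change of 0.06. The share that was higher, 36.8%, was near that over all genes, and fewer passed in either direction (57.9%). Ogdhl, a paralogue of Ogdh, rose from 21.8 ± 0.161 to 76.5 ± 2.77 CPM (3.50-fold, adjusted p = 8.36e-21, edgeR), while Ogdh fell. Adhfe1, a hydroxyacid-oxoacid transhydrogenase, rose by 0.86 ± 0.07 on the log2 scale, and Sdhaf4, an assembly factor of succinate dehydrogenase, rose by 0.76 ± 0.07. Named after their values were seen, the subunits of succinate dehydrogenase were split: Sdhb fell by 0.27 ± 0.04, Sdhd rose by 0.27 ± 0.04, and Sdha and Sdhc had values of 0.06 ± 0.04 and -0.05 ± 0.04 that did not pass.

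Of 19 further regulators of the complex and enzymes that use pyruvate or acetate, 3 of 13 tested were higher and 6 lower, 69.2% in either direction and so near the share over all genes. Ldha, the lactate dehydrogenase subunit, went from 1711 ± 13.2 to 903.3 ± 29.8 CPM, 1.89-fold lower (adjusted p = 4.57e-18, edgeR). Pck2, which makes phosphoenolpyruvate in the mitochondrion, was 1.90-fold lower, and Gpt2, which makes alanine from pyruvate, 1.64-fold lower. Acss2, which makes acetyl-CoA from acetate in the cytosol, was 2.06-fold higher. Pdp2, the other phosphatase of the complex, named after its value was seen, rose by 0.49 ± 0.06 on the log2 scale, from 17.4 ± 0.613 to 24.4 ± 0.839 CPM (adjusted p = 1.02e-07, edgeR), opposite to Pdp1.

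Of 19 genes of glutamate and aspartate metabolism, 11 of 15 tested were lower (73.3%, beside 36.9% of all genes) and 3 higher (20%, beside 37%), with a median log2 fold change of -0.42. Aldh18a1, the first enzyme of proline synthesis from glutamate, was 2.32-fold lower. Psat1, the aminotransferase of serine synthesis, and Adss, which adds aspartate in AMP synthesis, were each 1.80-fold lower, and Oat, ornithine aminotransferase, was 1.77-fold lower.

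Among 17 carriers and exchangers, 7 of 10 tested were lower and 1 higher, beside 36.9% and 37% of all genes. The one that rose was Slc25a1, the mitochondrial citrate exporter that supplies Acly, from 58.5 ± 4.95 to 79.5 ± 3.08 CPM (log2 fold change 0.44 ± 0.05, adjusted p = 2.55e-08, edgeR). Slc25a12, an aspartate-glutamate exchanger, fell by 0.30 ± 0.05 and the glutamine transporter Slc1a5 by 0.28 ± 0.04 on the log2 scale. Ucp2 was low, at 1.77 ± 0.351 and 0.278 ± 0.165 CPM, and fell by 2.72 ± 0.31.

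Of 15 genes of CoA supply and acetyl-CoA use, 10 were higher (66.7%, beside 37% of all genes) and 2 lower (13.3%, beside 36.9%), with a median log2 fold change of 0.28. Acat2, the cytosolic thiolase of sterol synthesis, was 3.73-fold higher, Pank1, a pantothenate kinase, 2.75-fold higher and Hmgcs1, the cytosolic HMG-CoA synthase, 2.44-fold higher, whereas Acat1, the mitochondrial thiolase, was 1.70-fold lower. In the list of lipoate synthesis and the branched-chain dehydrogenase, 7 of 15 were higher and 7 lower, an even split like that of all genes (37% and 36.9%). There Bckdk, the kinase of the branched-chain complex, fell by 0.49 ± 0.05 and Ppm1k, the phosphatase that opposes it, rose by 0.66 ± 0.10 on the log2 scale. Gcsh and Ndufab1, which carry lipoyl and acyl groups, fell by 0.34 ± 0.04 and 0.26 ± 0.04.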

How the data were processed

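Whole-number read counts and FPKM per gene and library were deposited by the authors in 1 table. The genome is GRCm38.p6 per the file headers and mm10 per the submitters' processing notes. What aligned and counted the reads, and with which strand setting, is not given in the sources used here. Per the labels, small RNA was enriched, whereas 97.8% to 98.3% of counts fell on protein-coding genes. Deposited rows total at least 10 counts. The FPKM deposited by the authors were checked by the transcript length they imply, against GENCODE M21.

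Counts were tested with edgeR 4.0.16 in R 4.3.3 (filterByExpr, TMM factors of 0.968 to 1.034, robust quasi-likelihood fit, group as the only term, Benjamini-Hochberg adjustment over 13243 genes, threshold 0.05). CPM are scaled by the TMM factors, errors of CPM are SDs over 3 libraries, and SEs of log2 fold changes are the estimate over the square root of F. Shares and pair ratios used exact permutation tests (scipy 1.17.1). Alternatives were other scalings and filters, DESeq2 1.42.0, a 1.2-fold threshold, each library left out and a replicate block. GC and length correction was added after the data were seen.

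Over the 8993 genes at 10 CPM or more on average, deviations of same-numbered libraries correlated at 0.367, 0.269 and 0.255. These values alone do not establish pairing, and no label tells what same-numbered libraries share. The main fit and the permutation tests treated libraries as unpaired, and the replicate block was an alternative. Differently numbered libraries correlated at -0.484 to 0.247, the highest being control 3 with MAOA-KO 2, close to the lower same-numbered values. Over all genes tested the values were 0.088, 0.058 and 0.035. Replicates differed beyond counting error (mean chi-square per gene 1.99 to 4.53). Members and gene lists were chosen with earlier results of these data known. Each member is named. Up to 4 called genes per further list were named by lowest p, and some are not reported here.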

Additional observations from a re-analysis of the deposited data

How the results depend on the processing

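In all 16 alternatives more of the 32 genes were called lower than higher: 16 (1.2-fold threshold) to 24 (GC and length correction) were called lower and 4 to 6 higher. Over the table, 50.1% of the calls in the main fit were higher. That share ran from 47.6% (GC and length correction with the replicate block) to 58.7% (library totals alone). The median log2 fold change of the 32 genes was -0.25 with library totals alone and -0.27 with GC and length correction, also with the replicate block, against -0.33. Without any 1 library it lay between -0.34 and -0.30. The 1.2-fold threshold called 3120 genes higher and 2959 lower over the table, as it asks for a larger change. Of 512 repeats of single genes, 481 kept direction and side of the threshold, 18 lost the call, 10 gained one and 3 reversed. The reversals were Pdha1 (0.06 with library totals alone and 0.01 with upper-quartile factors) and Dlat (0.00 with library totals alone), neither called, as these scalings raise the median of all genes by 0.09 and 0.04. The replicate block called 5099 genes higher and 5106 lower against 4900 and 4881, and changed 1 call of the 32 genes, that of Dlat. Among pair ratios and kinase shares, Mpc1 over Mpc2 (0.02, or -0.03 to 0.09 without 1 library) and the Pdk1 share changed sign, both with overlapping groups. Depth limits Pdk4, at 25 to 35 counts per library, and Pdk2, at 100 to 177.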

Other observations

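Nnt, the proton-translocating transhydrogenase, couples mitochondrial NADH to NADPH and so works beside Idh2. Nnt lay at 0.507 ± 0.127 CPM in control and 0.359 ± 0.0627 CPM in MAOA-KO libraries (SD, n = 3 each, adjusted p = 0.199, edgeR), far below Idh2 in both groups. Acod1, which makes itaconate from the cycle in activated macrophages, was not tested, at 0.185 and 0.104 CPM, near the level of 3 counts.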
